A study of Mus musculus with 12 samples.

Results

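Proteins leave the endoplasmic reticulum (ER) and move through the Golgi in coated vesicles, and 40 genes for this machinery were followed in mouse quadriceps muscle. They were taken by name from the tables, and all 40 were found among the 15344 genes measured. The set held 9 subunits of the COPI coat, 10 genes of the COPII coat, 8 subunits of the COG tether, 6 golgins, a group of 3 with the GTPases Arf1 and Arf4 and the ARF activator Gbf1, and a group of 4 with the tether Uso1 (p115) and the SNAREs Bet1, Gosr1 and Gosr2. COPII coats form on the ER when the GTPase SAR1 recruits SEC23, SEC24, SEC13 and SEC31, with SEC24 selecting the cargo. COPI coats form on the Golgi through ARF GTPases and return proteins to the ER or between cisternae. COG and the golgins hold arriving vesicles at Golgi membranes before SNAREs drive fusion, and the route supplies glycoproteins and newly made lysosomal enzymes in muscle as in other tissues.

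RNA came from the quadriceps of 12 C57BL/6 mice that were 6 months old, with 4 libraries per group. The study's methods give the knockout mice as male and no sex for the others. By the labels and methods, WT mice were wild type, and no treatment of them is stated. The KO mice were given as knockouts of acid alpha-glucosidase (GAA, the lysosomal enzyme missing in Pompe disease) that had received saline. The AAV mice were given as carrying the same knockout and the vector AAV2/8-LSPhGAApA at 2e12 vg/kg, injected at 2 months of age. The promoter of that vector is restricted to liver, so human GAA was to be made there and not by muscle itself. The muscle was whole tissue, and fewer cells of a type cannot be told apart from less RNA per cell.

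Gaa, the targeted gene, went against several labels. Its normalized count was 343, 14640, 324 and 460 in WT 1 to 4, 12151, 13075, 11936 and 12895 in KO 1 to 4, and 947, 587, 500 and 9854 in AAV 1 to 4. The libraries labelled KO were thus all high in Gaa, as were WT 2 and AAV 4, while the other WT and AAV libraries were low. In what follows WT, KO and AAV mean only the libraries with those labels, and every direction is a direction between labels. Results were also computed without WT 2 and without AAV 4. WT 3 also lay at the end of the WT range in the trafficking genes called in KO against WT. It was the highest WT library in all 6 of the genes called higher in KO and the lowest in both genes called lower. In the same 6 genes AAV 3 was the highest AAV library in 5, and WT 4 and AAV 4 were each the lowest of their group in 4.

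Library depth ran from 22122233 to 47379737 reads. Spread between libraries of a group was smallest in KO, where the median coefficient of variation of the 40 genes was 6.68%, against 14.6% in WT and 13.0% in AAV. Over 15154 genes the medians were 13.5% in KO, 25.6% in WT and 22.9% in AAV. Macrophage markers were lower in KO than in WT (4 of 7 tested called, 57.1%, against 15.3% of all genes called lower; summed normalized count 665 to 1268 in KO against 1292 to 4340 in WT and 756 to 3752 in AAV), and endothelial markers were higher (4 of 8 called, against 12.3% of all genes called higher; 7327 to 8881 in KO against 2954 to 7773 in WT and 5853 to 10570 in AAV). None of the markers found in the tables was at 0 throughout a group. Summed markers of muscle fibres overlapped between all groups, at 5527000 to 7033000 in WT, 6324000 to 7377000 in KO and 4443000 to 7260000 in AAV. In the fibre list Myh4 was higher and Myh1 and Myh2 were lower in KO than in WT, and Myh1 and Myh2 were higher in AAV than in KO. Of the fibroblast, adipocyte and nerve markers only Dpt was called in KO against WT (higher), and in AAV against KO only Dpt and the endothelial Vwf (both lower). The part of these cell types in the results below was not tested.

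On the scale of normalized counts per kilobase of exon, which allows genes to be compared, Sar1b was the highest of the 40 in WT at 7541 ± 4530 (SD, n = 4), followed by the golgin Golga4 at 4178 ± 775. The difference between these neighbours was smaller than the SD of Sar1b. Within COPI the order in WT ran from the epsilon subunit Cope at 1808 ± 358 and the zeta subunit Copz2 at 1295 ± 320 down to Copb1 at 178 ± 33.3 and Copg2 at 97.3 ± 10.5. Within COG the highest was Cog4 at 830 ± 96.9 and the lowest Cog5 at 39.6 ± 8.82, although both proteins are subunits of 1 complex. Sec24d, a cargo adaptor of COPII, was the lowest of all at 39.6 ± 6.39 and did not differ from Cog5 beyond the spread. In KO the mean of Copz2 was 525 per kilobase, under Copa at 813, Copb2 at 739 and Arcn1 at 687, all of which it exceeded in WT.

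**Figure D1:**
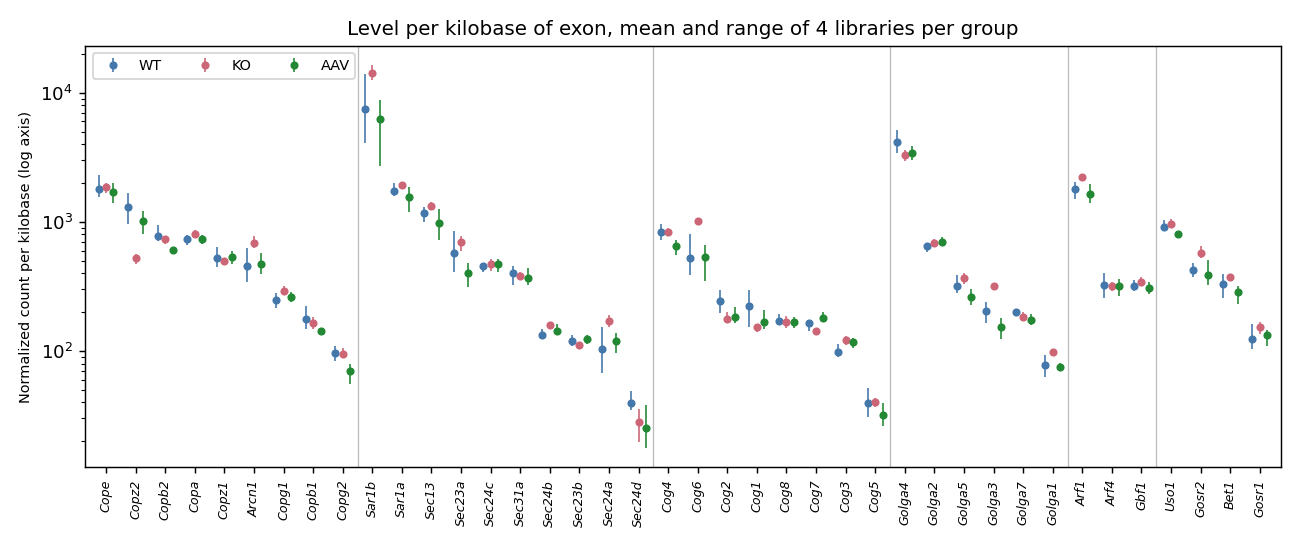
Normalized count per kilobase of exon (log axis) for each of the 40 genes, ordered by the WT mean within its group; points are means and lines the range of 4 libraries for WT, KO and AAV. Sar1b and Golga4 lie highest and Sec24d and Cog5 lowest, and the KO range of Copz2 lies under the other groups while that of Cog6 and Golga3 lies above them.

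The first comparison set the libraries labelled KO beside those labelled WT, which by the labels is the question of the GAA knockout, although Gaa counts ran opposite to it. A gene was called when the adjusted p of limma, taken over all genes tested, was under 0.05. In KO 6 of the 40 genes were higher (15.0%, against 12.3% of all genes tested) and 2 were lower (5.0%, against 15.3%). The higher genes were Sar1b and Sec24a of COPII, Arcn1 of COPI, Cog6 of COG, the golgin Golga3 and the SNARE Gosr2, and the lower ones were Copz2 and Cog2. A call with a change of at least 1 on the log2 scale was made for 3 genes, Copz2, Sar1b and Cog6 (7.5%, against 13.9% of all genes). Values of KO and WT did not overlap in 7 genes (17.5%, against 28.3% of all genes). The median log2 fold change of the 40 genes was 0.08, beside 0.02 over all genes.

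The second comparison set the libraries labelled AAV beside those labelled KO, by the labels the question of the vector, and it uses the same KO libraries as the first. In AAV 14 of the 40 genes were lower (35.0%, against 13.4% of all genes tested) and 2 were higher (5.0%, against 12.8%). The lower genes lay in every group of the machinery, with 3 in COPI, 3 in COPII, 2 in COG, 3 golgins, Arf1, and the SNAREs Bet1 and Gosr2. Only Copz2 and the COG subunit Cog7 were higher. Golga3 and Sar1b passed a change of 1 on the log2 scale (5.0%, against 8.98% of all genes). AAV and KO values did not overlap in 19 genes (47.5%, against 30.6% of all genes), of which 17 were lower in AAV. The median log2 fold change of the 40 genes was -0.20, beside 0.04 over all genes.

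With libraries scaled by total reads the median of all genes moved to 0.21 in this comparison, and 7 of the 40 genes were called lower and 2 higher, beside 1271 lower and 2397 higher of all genes. The median of the 40 genes relative to that of all genes was -0.24 with either scaling. The number of single genes called thus depended on the scaling. The median relative to all genes could hardly move, because scaling shifts nearly all genes of a library alike. Its sameness is therefore not a test of the result.

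The third comparison set the libraries labelled AAV beside those labelled WT. None of the 40 genes was called by limma, beside 1.29% of all genes, by edgeR, beside 1.09%, or by DESeq2, beside 6.37%. An unadjusted p under 0.05 was reached by 6 genes with limma (15.0%, against 18.2% of all genes). That number was 0 without WT 1 (beside 13.4% of all genes), 1 with total-read scaling (17.8%) and 8 without WT 3 (24.6%). Values did not overlap in 3 genes, Copb2, Copg2 and Uso1, all lower in AAV (7.5%, against 11.7% of all genes). With WT 2 and AAV 4 both left out, 0 of the 40 were called, beside 10 of all 14710 genes tested (0.068%).

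**Figure D2:**
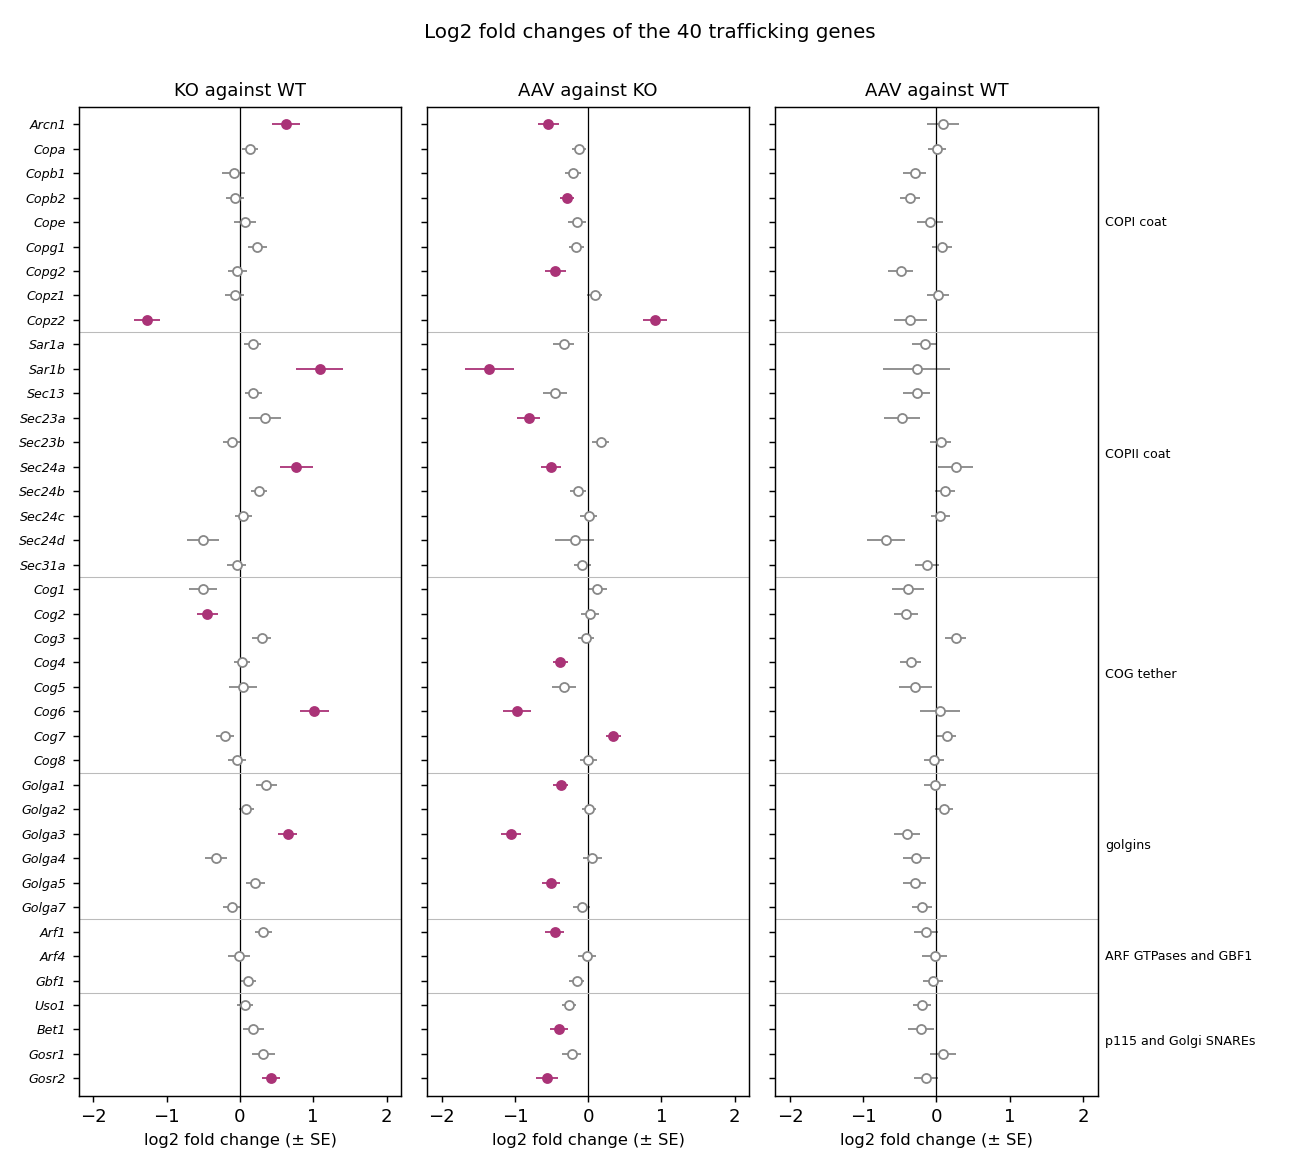
Log2 fold change of each of the 40 genes in the 3 comparisons, with the standard error of limma; filled points have an adjusted p under 0.05 and grey lines separate the groups of the machinery. In KO against WT 6 filled points lie right and 2 left of 0, in AAV against KO 2 lie right and 14 left, and in AAV against WT no point is filled.

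KO against WT and AAV against KO share the KO libraries, so a high or low KO value enters both fold changes of a gene with opposite sign. The values of each comparison are given side by side below, and the 2 signs of a gene are not independent of each other.

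Among the COPI subunits the gene that moved most was Copz2, which encodes one of 2 alternative zeta subunits of the coat. It lies at chr11:96849870-96861203 on the plus strand of GRCm38. Its normalized count was 1028, 1549, 895 and 1345 in WT 1 to 4, 493, 435, 497 and 528 in KO 1 to 4, and 1125, 755, 744 and 1127 in AAV 1 to 4. All KO libraries lay under all WT and AAV libraries, including WT 2 and AAV 4. In KO it was 0.414 times the WT level (log2 fold change -1.27 ± 0.18 SE, adjusted p = 0.0018), and in AAV 1.88 times the KO level (0.91 ± 0.16, adjusted p = 0.00664). The difference between AAV and WT, -0.36 on the log2 scale, was not called.

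The 250 bases before the RefSeq start of Copz2 are shown because it was the one coat gene lower in KO. They hold 66.0% G and C, and capitals mark the letters CCACG on either strand, which form the second block of the ER stress element (GRCm38.p6, chr11:96849626-96849875, plus strand).
Copz2: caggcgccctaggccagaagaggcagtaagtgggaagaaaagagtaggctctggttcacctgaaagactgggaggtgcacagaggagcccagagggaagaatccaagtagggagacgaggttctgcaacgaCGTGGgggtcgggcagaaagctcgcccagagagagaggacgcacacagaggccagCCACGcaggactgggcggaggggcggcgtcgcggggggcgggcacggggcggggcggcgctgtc

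Copz1, the paralog of Copz2, was not called in any comparison. Its normalized counts were 1165, 1553, 1101 and 1351 in WT, 1237, 1158, 1240 and 1252 in KO, and 1225, 1161, 1372 and 1455 in AAV. Per kilobase, Copz2 made up 70.7% ± 2.07 (SD, n = 4) of the pair in WT, 51.2% ± 1.17 in KO and 64.9% ± 5.14 in AAV. The lowest WT library was at 68.1%, the highest KO library at 52.5% and the lowest AAV library at 58.8%, so that KO did not overlap with the others. On the log2 scale the ratio of Copz1 to Copz2 was higher in KO than in WT by 1.20 and lower in AAV than in KO by 0.83 (difference -0.83). Both gave p = 0.0286 in a two-sided exact permutation test, the smallest that 4 against 4 allows, and adjusted p = 0.0735 over 18 ratio tests, so no ratio test passed 0.05 after adjustment.

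Arcn1, the delta subunit of COPI, was the one coat subunit of this group higher in KO. Its normalized counts were 2008, 1386, 2556 and 1467 in WT, 2721, 2766, 2540 and 3157 in KO, and 1684, 2137, 2322 and 1594 in AAV. KO lay above AAV throughout, whereas WT 3 fell within the KO range. The log2 fold change was 0.63 ± 0.19 in KO against WT (adjusted p = 0.0349) and -0.54 ± 0.14 in AAV against KO (adjusted p = 0.0212). Long stretches of 2 gene models not in the tables, Gm8750 and Gm8752, match Arcn1 transcripts over 1539 and 1692 bases at an identity of at least 90%, so reads could be lost from Arcn1 where they match both.

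Copb2 (beta prime subunit) and Copg2 (one of 2 gamma subunits) were lower in AAV than in KO, with log2 fold changes of -0.29 ± 0.09 (adjusted p = 0.042) and -0.45 ± 0.14 (adjusted p = 0.0417). Of 19 alternative fits, 13 lost the call of Copb2 and 10 that of Copg2. Copb2 counts were 2865, 2255, 2237 and 2165 in WT, 2286, 2052, 2305 and 2378 in KO, and 1825, 1818, 1921 and 1800 in AAV, where every library lay under all others. Copg2 counts were 430, 394, 330 and 387 in WT, 357, 358, 421 and 363 in KO, and 221, 264, 306 and 313 in AAV, again under all others. Its paralog Copg1 was at 1292, 1285, 1044 and 989 in WT, 1480, 1285, 1370 and 1271 in KO, and 1116, 1172, 1322 and 1229 in AAV, and its groups overlapped. The share of Copg2 in the Copg1 and Copg2 pair per kilobase was 28.2% ± 2.24 in WT, 24.5% ± 1.84 in KO and from 18.8% to 22.9% in AAV. The AAV and WT shares did not overlap (p = 0.0286, two-sided exact permutation test, adjusted p = 0.0735). Exons of Mest on the opposite strand cover 23.0% of Copg2 exon bases, and the strand setting of the counting is not given in the sources used here. The other COPI subunits, Copa, Copb1, Cope and Copg1, were not called in either comparison with KO.

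**Figure D3:**
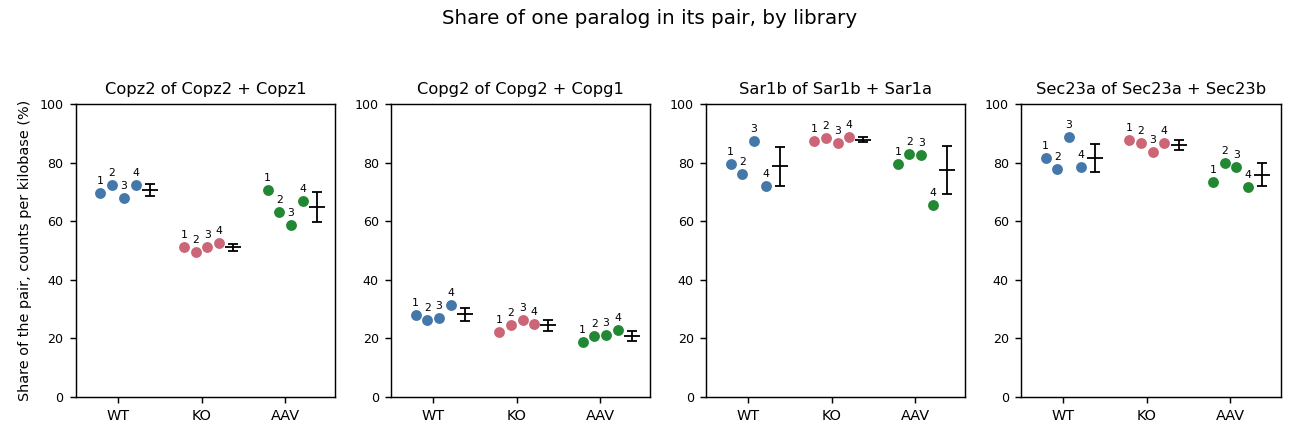
Share of one paralog in its pair, from normalized counts per kilobase (percent), in each library; numbers are library numbers and bars the mean ± SD of 4 libraries. The mean share of Copz2 is 70.7% in WT and 51.2% in KO with no overlap, and the 4 KO libraries lie above the 4 AAV libraries for both Sar1b and Sec23a.

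Of the COPII genes Sar1b changed most. SAR1B is the GTPase whose loss in humans blocks chylomicron secretion. Its normalized counts were 8231, 6172, 16949 and 4873 in WT, 16067, 17731, 15170 and 19713 in KO, and 5553, 10470, 10604 and 3250 in AAV. WT 3 lay among the KO libraries and the other WT libraries far below them, and all AAV libraries lay under all KO libraries. KO was 2.12 times WT (log2 fold change 1.09 ± 0.32, adjusted p = 0.0332) and AAV 0.392 times KO (-1.35 ± 0.34, adjusted p = 0.0187). Without WT 3 the KO change was 1.44 (adjusted p = 0.000135), while leaving out any other single library took the call away, with adjusted p up to 0.0912.

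Sar1b made up 78.9% ± 6.66 of the SAR1 pair per kilobase in WT, 88.0% ± 0.89 in KO and 77.7% ± 8.29 in AAV. Its paralog Sar1a was not called in any comparison, with counts of 4537, 4208, 5203 and 4136 in WT, 4938, 5033, 4980 and 5365 in KO, and 3098, 4687, 4830 and 3732 in AAV. The ratio of Sar1a to Sar1b was higher in AAV than in KO by 1.02 on the log2 scale without overlap (p = 0.0286, two-sided exact permutation test, adjusted p = 0.0735).

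Sec24a, a cargo adaptor of COPII, is the neighbour of Sar1b. In the GENCODE annotation of GRCm38 the genes point away from each other on chromosome 11, with Sec24a at chr11:51692264-51763634 on the minus strand and Sar1b at chr11:51763687-51791925 on the plus strand, and 52 bases lie between their starts. RefSeq places the start of Sec24a 6800 bases further into the gene. No other pair among the 40 genes had starts within 1 Mb of each other. Counts of Sec24a were 715, 455, 1025 and 591 in WT, 1276, 1062, 1020 and 1210 in KO, and 930, 847, 797 and 652 in AAV. As for Sar1b, WT 3 was within the KO range and all AAV libraries were under it. The changes were 0.77 ± 0.22 (adjusted p = 0.0297) in KO against WT and -0.51 ± 0.13 (adjusted p = 0.023) in AAV against KO.

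The 4 SEC24 genes had unequal shares. Per kilobase Sec24c made up 59.0% to 67.2% of their sum in WT, 55.1% to 59.0% in KO and 56.0% to 65.4% in AAV. The share of Sec24a was 14.1% ± 3.97 in WT, 20.6% ± 1.02 in KO and 15.9% ± 2.75 in AAV, and that of Sec24d 5.41% ± 0.57, 3.44% ± 0.87 and 3.33% ± 1.18. Sec24b counts were 758, 636, 670 and 656 in WT, 847, 795, 777 and 826 in KO, and 837, 682, 753 and 678 in AAV. KO and WT did not overlap, but the log2 fold change of 0.26 ± 0.11 was not called (adjusted p = 0.107). Sec24c counts were 2164, 2105, 2105 and 1844 in WT, 2206, 1881, 2055 and 2352 in KO, and 1856, 2070, 2323 and 2292 in AAV. Those of Sec24d were 195, 139, 158 and 141 in WT, 141, 100.9, 132 and 79.6 in KO, and 79.9, 102, 70.9 and 153 in AAV, and neither gene was called. The ratio of Sec24c to Sec24d did not overlap between KO and WT, nor that of Sec24a to Sec24b between AAV and KO (p = 0.0286 for each, two-sided exact permutation test, adjusted p = 0.0735).

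Sec23a, which joins SEC24 in the inner layer of the COPII coat and activates the GTPase of SAR1, was called only between AAV and KO. Its counts were 2431, 1669, 3509 and 1821 in WT, 3047, 2829, 2459 and 3201 in KO, and 1502, 1883, 1968 and 1280 in AAV. AAV lay under KO in all libraries, at a log2 fold change of -0.81 ± 0.15 (adjusted p = 0.00771). WT spanned both, with WT 3 the highest of all 12 libraries, and KO against WT gave 0.35 ± 0.22 (adjusted p = 0.249). Without WT 3 the KO change was 0.56 (adjusted p = 0.0108). The paralog Sec23b, with counts of 372, 321, 302 and 334 in WT, 290, 292, 322 and 325 in KO, and 369, 316, 359 and 339 in AAV, was not called. The ratio of Sec23a to Sec23b was lower in AAV than in KO by 0.98 on the log2 scale (difference -0.98) without overlap (p = 0.0286, two-sided exact permutation test, adjusted p = 0.0735). Neither Sec13 nor Sec31a, the outer layer of the coat, was called in any comparison, but Sec13 was called in both comparisons with KO when values were corrected for gene length (log2 fold changes of 0.46, adjusted p = 0.0247, and -0.60, adjusted p = 0.0231).

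**Figure D4:**
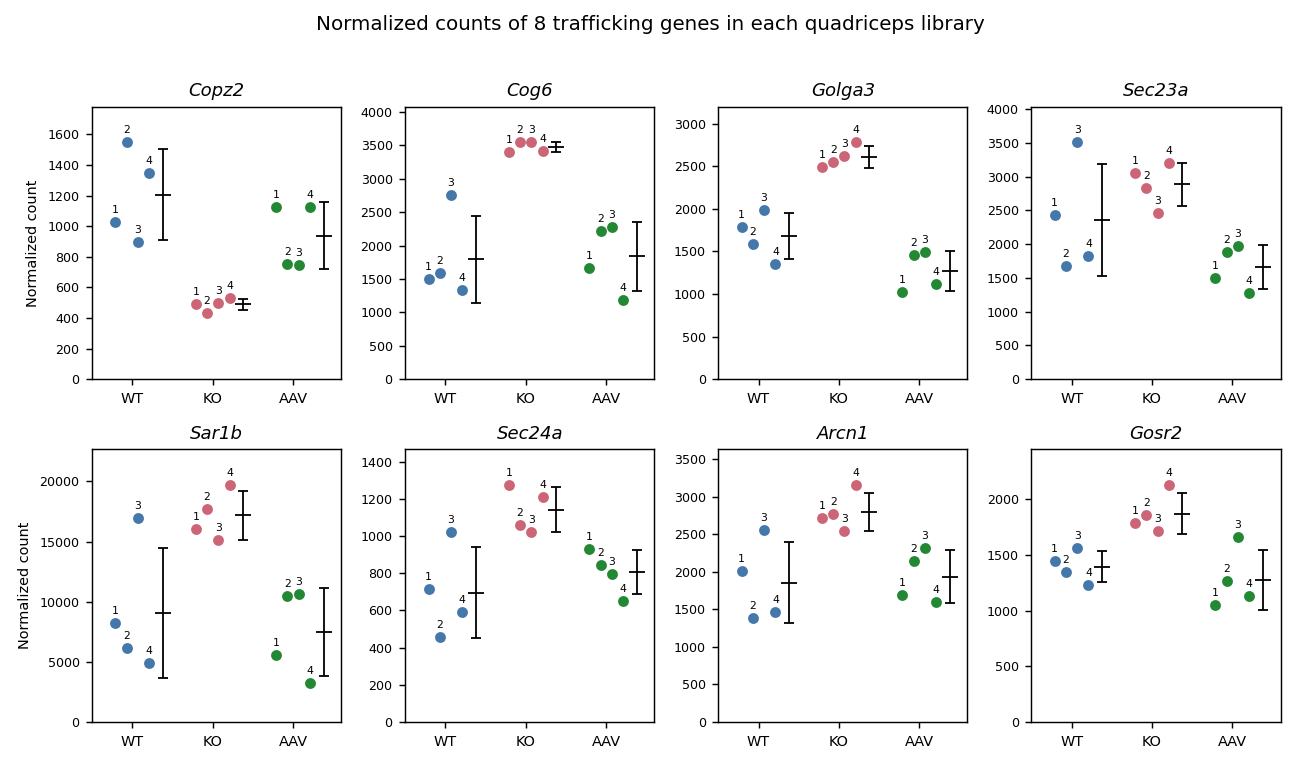
Normalized counts (axes from 0) of 8 genes in each library, with library numbers on the points and the mean ± SD of 4 libraries beside them. KO lies under both other groups for Copz2 and above both for Cog6, Golga3 and Gosr2, while WT 3 lies near or in the KO range for Sar1b, Sec24a, Arcn1 and Sec23a.

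In COG, the 8-subunit tether of the Golgi, Cog6 stood out from the other subunits. It lies at chr3:52981875-53017237 on the minus strand. Its counts were 1503, 1583, 2750 and 1334 in WT, 3407, 3548, 3546 and 3419 in KO, and 1670, 2213, 2277 and 1187 in AAV. KO values were within a narrow range above all other libraries, WT 3 included. KO was 2.02 times WT (log2 fold change 1.02 ± 0.20, adjusted p = 0.00744) and AAV 0.511 times KO (-0.97 ± 0.19, adjusted p = 0.00832). In AAV against WT the change was 0.05 on the log2 scale.

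Cog2, a subunit of the other lobe of the complex, was lower in KO, with counts of 834, 719, 558 and 651 in WT and 480, 500, 468 and 563 in KO (log2 fold change -0.45 ± 0.15, adjusted p = 0.0469). KO 4 was above WT 3, so these groups overlapped. AAV counts were 466, 486, 491 and 614, close to KO. Cog4, with counts of 2443, 2824, 2394 and 2131 in WT, 2396, 2436, 2474 and 2624 in KO, and 1632, 1910, 2148 and 1977 in AAV, was lower in AAV than in KO (log2 fold change -0.38 ± 0.11, adjusted p = 0.0289). Cog7, with 659, 693, 570 and 690 in WT, 606, 542, 574 and 540 in KO, and 725, 682, 667 and 801 in AAV, was higher (0.34 ± 0.11, adjusted p = 0.0389). In both, AAV and KO did not overlap and WT overlapped with each. Cog3, Cog5 and Cog8 were not called, nor was Cog1, with 605 to 1165 in WT and 556 to 633 in KO. Exons of Fam104a on the opposite strand cover 18.8% of Cog1, and those of Pdf on the same strand 29.2% of Cog8. Of the 8 COG subunits 1 was called higher and 1 lower in KO against WT (12.5% each, against 12.3% and 15.3% of all genes), and in AAV against KO 1 was called higher (12.5%, against 12.8%) and 2 lower (25%, against 13.4%).

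Golga3 (golgin-160), a coiled-coil protein of the Golgi membrane, was the golgin with the clearest separation. It lies at chr5:110176701-110226470 on the plus strand. Its counts were 1781, 1588, 1981 and 1351 in WT, 2486, 2549, 2618 and 2781 in KO, and 1024, 1452, 1487 and 1117 in AAV. KO was above all other libraries, at 1.57 times WT (log2 fold change 0.65 ± 0.13, adjusted p = 0.00823), and AAV was at 0.481 times KO (-1.06 ± 0.14, adjusted p = 0.00183). AAV and WT overlapped, and the difference of -0.40 was not called.

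Golga5 and Golga1, a golgin recruited through ARL1, were lower in AAV than in KO, with log2 fold changes of -0.51 ± 0.12 (adjusted p = 0.0172) and -0.38 ± 0.10 (adjusted p = 0.0258). Golga5 counts were 1095, 1022, 1338 and 965 in WT, 1283, 1265, 1139 and 1394 in KO, and 779, 936, 1049 and 826 in AAV. Golga1 counts were 360, 392, 372 and 351 in AAV and 484, 457, 474 and 501 in KO, against 365, 308, 450 and 382 in WT. Golga4, the golgin with the highest level per kilobase, was at 26003 to 39432 in WT, 22445 to 27326 in KO and 22711 to 29564 in AAV, and was not called. With values corrected for gene length it was called lower in KO than in WT (-0.59, adjusted p = 0.00799, against -0.33 uncorrected). Golga2 (GM130), the cis-Golgi receptor of p115, was at 2614 to 3069 in WT, 2936 to 3268 in KO and 2908 to 3374 in AAV. Neither Golga2 nor Golga7 was called.

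Of the ARF group, Arf1, the GTPase that recruits COPI, was lower in AAV (2952, 3846, 4084 and 2927) than in KO (4774, 4437, 4645 and 4875), with a log2 fold change of -0.46 ± 0.13 (adjusted p = 0.0303). KO was also above all WT libraries (3857, 3832, 4244 and 3159), but the change of 0.32 ± 0.12 was not called (adjusted p = 0.0682). Arf4 and Gbf1, the exchange factor that activates ARFs at the cis-Golgi, were not called in any comparison.

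Among the fusion factors, the SNARE Gosr2 (membrin) had counts of 1441, 1347, 1565 and 1228 in WT, 1783, 1855, 1714 and 2129 in KO, and 1053, 1270, 1658 and 1127 in AAV. All KO libraries lay above all others. The log2 fold changes were 0.42 ± 0.12 in KO against WT (adjusted p = 0.0297) and -0.57 ± 0.15 in AAV against KO (adjusted p = 0.0226). Its partner Bet1, with 542, 390, 601 and 480 in WT, was lower in AAV (351, 480, 469 and 427) than in KO (567, 549, 562 and 578), at -0.40 ± 0.12 (adjusted p = 0.0403). That Bet1 call was lost in 10 of 19 alternative fits. With no library left out, the change ran from -0.56 to -0.066 between fits. Uso1 was under all KO libraries in AAV (2937 to 3284 against 3593 to 4119) without a call (-0.26 ± 0.10, adjusted p = 0.0686), and Gosr1 was not called.

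Few of these calls held in every alternative fit. Copz2, Cog6 and Golga3 kept their KO against WT call in all 19 fits tried, and the same genes and Sec23a kept their AAV against KO call in all 19. Leaving out any single library other than WT 3 left only Copz2, Cog6 and Golga3 called in KO against WT, beside 15.9% to 19.2% of all genes. Without WT 2, whose Gaa count was unlike that of the other WT libraries, 3 of the 40 genes were thus called. Without WT 3 the number was 14, beside 48.4% of all genes. Without AAV 4, 12 genes were called in AAV against KO, beside 22.1% of all genes, and without AAV 1 the number was 6, beside 15.0%.

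Promoter sequences from RefSeq (GRCm38.p6, 250 bases before to 50 after the start) were found for 37 of the 40 genes, all but Arcn1, Golga4 and Golga7. The unfolded protein response element TGACGTGG, which XBP1 and ATF6 bind in ER stress genes, was searched on both strands. It was present in 6 of the 37 promoters (16.2%), against 0.859% of the promoters of 10483 measured genes and 0.607% of all 27025 promoters. The letters CCACG, which overlap this element, were in 78.4% of the 37 promoters and 46.5% of those of measured genes, and CCAAT in 35.1% and 37.9%. The full ER stress element, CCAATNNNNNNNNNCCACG, was in 0 of the 37, beside 0.172% of measured genes, and the lysosomal CLEAR element TCACGTGA in 0, beside 1.88%. Each match is a match of letters in this window only.

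The 6 sites are shown as 30 bases each, on the strand of the gene and 5′ to 3′, because the element was found more often in these promoters than in others and the genes were not chosen by it, although 31 of the 37 lack it. Capitals mark the element, which reads CCACGTCA where it lies on the other strand. All 6 lie within 30 bases of the annotated start.
Copb1 (chr7:114254690-114254719, minus strand): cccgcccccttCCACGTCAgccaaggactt
Copb2 (chr9:98563713-98563742, plus strand): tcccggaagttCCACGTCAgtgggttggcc
Sec23a (chr12:59011993-59012022, minus strand): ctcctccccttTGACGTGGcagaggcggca
Sec24d (chr3:123267459-123267488, plus strand): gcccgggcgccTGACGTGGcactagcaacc
Arf1 (chr11:59228228-59228257, minus strand): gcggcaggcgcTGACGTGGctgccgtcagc
Gbf1 (chr19:46152535-46152564, plus strand): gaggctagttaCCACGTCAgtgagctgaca

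The 6 genes with the element were not called in KO against WT, where their log2 fold changes ran from -0.50 for Sec24d to 0.35 for Sec23a. In AAV against KO, 3 of the 6 (Copb2, Sec23a and Arf1) were lower, beside 35.0% of the 40 genes and 13.4% of all genes, and Copb1, Sec24d and Gbf1 were not called. The 23 listed genes of the unfolded protein response gave 9 lower (39.1%, against 15.3% of all genes) and 1 higher in KO against WT, and 5 higher (21.7%, against 12.8%) and 1 lower in AAV against KO. Manf, a secreted factor induced by ER stress, had means of 1292 ± 188 in WT, 405 ± 64.2 in KO and 961 ± 264.5 in AAV (log2 fold change -1.67 ± 0.16, adjusted p = 0.000259, in KO against WT). The median of that list was -0.32 in KO against WT and 0.24 in AAV against KO.

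The other genes of the route, 88 listed of which 86 were tested, gave 7 higher (8.14%, against 12.3% of all genes) and 11 lower (12.8%, against 15.3%) in KO against WT. In AAV against KO 7 were higher (8.14%, against 12.8%) and 23 lower (26.7%, against 13.4%). Their median log2 fold change in AAV against KO was -0.16, beside -0.20 for the 40 genes and 0.04 for all genes. None was called in AAV against WT. In AAV against KO, 1 of the 12 ER and Golgi SNAREs and SM proteins was lower, Vti1a (8.33%, against 13.4% of all genes), and 1 higher, Bnip1 (8.33%, against 12.8%). Of the 11 KDEL and ERGIC cargo receptors 2 were lower (18.2%) and 0 higher. Of the 7 DSL1 and GARP tether subunits 2 were lower (28.6%) and 0 higher. Of the 8 other golgins and GRASPs 4 were lower (50%, against 13.4% of all genes) and 0 higher. In KO against WT the SNARE list had 0 higher and 2 lower (16.7%, against 15.3%), and the KDEL and ERGIC list 0 and 1 (9.09%). The DSL1 and GARP list had 1 higher (14.3%, against 12.3%) and 0 lower there, and the other golgins and GRASPs 1 of each (12.5%). Of the 9 p24 cargo receptors 0 were higher and 1 lower (11.1%, against 15.3%) in KO than in WT. In AAV against KO 3 of them were lower (33.3%, against 13.4%) and 1 higher (11.1%, against 12.8%). The receptors Tmed2, Tmed7 and Tmed10, which COPI and COPII carry between the ER and the Golgi, were lower in AAV than in KO, with log2 fold changes of -0.72 ± 0.14, -0.87 ± 0.20 and -0.54 ± 0.14 (adjusted p from 0.00894 to 0.0218), whereas Tmed3 of the same list was higher (0.60 ± 0.18, adjusted p = 0.0392). Of the 6 genes for COPII assembly at ER exit sites, 1 was higher (16.7%, against 12.3%) and 0 lower in KO than in WT. In AAV against KO 2 were lower (33.3%, against 13.4%) and 1 higher (16.7%, against 12.8%). The lower ones were Mia3 (TANGO1), which loads collagen at ER exit sites (-0.70 ± 0.13, adjusted p = 0.00796), and Tfg, which organises those sites (-0.71 ± 0.15, adjusted p = 0.0126), and the higher one was Sec16b (0.97 ± 0.29, adjusted p = 0.0371). Of the 7 Golgi RABs 2 were higher (28.6%, against 12.3% of all genes) and 1 lower (14.3%, against 15.3%) in KO than in WT, and 3 were lower (42.9%, against 13.4%) and 0 higher in AAV than in KO. Rab6a had means of 1611 ± 486 in WT, 2910 ± 179 in KO and 1304 ± 216 in AAV, and it was higher in KO (log2 fold change 0.90 ± 0.19, adjusted p = 0.00979) and lower in AAV than in KO (-1.17 ± 0.13, adjusted p = 0.000955). Rab2a, a RAB of the ER to Golgi step, went the same way, with 0.74 ± 0.12 (adjusted p = 0.00396) and -0.86 ± 0.12 (adjusted p = 0.00276). Rab1b, also of that step, was the one lower in KO than in WT (-0.51 ± 0.15, adjusted p = 0.0318), and it was not called in AAV against KO (0.25 ± 0.12). Of the 14 subunits of the TRAPP tether 4 were lower (28.6%, against 13.4% of all genes) and 3 higher (21.4%, against 12.8%) in AAV than in KO, and 1 was higher (7.14%, against 12.3%) and 2 lower (14.3%, against 15.3%) in KO than in WT. Trappc8 was lower in AAV than in KO (-1.26 ± 0.24, adjusted p = 0.0081), and so was Trappc12 (-0.80 ± 0.15, adjusted p = 0.00817), which was higher in KO than in WT (0.74 ± 0.13, adjusted p = 0.00425). Trappc6a had means of 312 ± 97.7 in WT, 41.8 ± 17.8 in KO and 248 ± 37.9 in AAV, a log2 fold change of -2.93 ± 0.35 (adjusted p = 0.000909) and then 2.64 ± 0.31 (adjusted p = 0.00117). Of 12 genes of the ARF cycle 1 was higher (8.33%) and 3 lower (25%) in KO than in WT, and 1 higher (8.33%) and 2 lower (16.7%) in AAV than in KO. Arf5, an ARF of the Golgi, was lower in KO (-1.60 ± 0.32, adjusted p = 0.0079) and higher in AAV than in KO (0.99 ± 0.22, adjusted p = 0.0143).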

How the data were processed

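Libraries from 12 quadriceps samples were sequenced. Per the labels and the study's methods, the authors trimmed reads (Trim Galore 0.4.1, checked with FastQC 0.11.2), aligned them to GRCm38 (Ensembl release 73) with STAR, counted unique alignments per gene with HTSeq 0.6.1 and divided counts by 1 DESeq2 1.16.1 size factor per library. The deposited values are this normalized signal, filtered by the authors at 10 reads in any library. Deposited columns of fold changes and p-values hold the authors' own comparisons and were not used. No per-sample column was left unused.

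The 2 tables were joined on gene identifier (15344 genes). Whole reads were recovered from the steps of the values (all within a tolerance of 0.05 of a whole number). Main tests used limma 3.58.1 (trend, R 4.3.3) on log2(value + 1) of the 8 libraries compared, keeping genes that reached 10 in 1 or more of them, with Benjamini-Hochberg adjustment over all genes tested and a threshold of 0.05. Fold changes are on that scale, which understates low genes. Values per kilobase used exon unions of GENCODE M21 basic transcripts. Paralog ratios were tested with exact permutations (18 tests). Values in every library are given for genes called in at least 1 comparison (the 16 with the lowest adjusted p, with Cog2 added after its value was seen), both paralogs of pairs whose ratio did not overlap, and Gaa. Of other lists, up to 3 called genes with the lowest adjusted p were named, with Tmed3 added after its value was seen. Alternatives were edgeR 4.0.16 and DESeq2 1.42.0 on recovered reads, other scalings, filters and corrections, a replicate block and leaving out libraries. Fits were tested on simulated data in which every gene and group had the same level of extra spread. Spread here differed between groups, so the simulation does not show the error rate in these data. The 40 genes and all lists were chosen with earlier results of these data known. P-values measure only the spread between these samples. Promoters came from RefSeq, 1 per gene.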

Additional observations from a re-analysis of the deposited data

Results flagged for a closer look

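In groups of 4 libraries a value was singled out when its gap to the nearest other library, as a share of the group's range, exceeded Dixon's 95% critical value. Among 120 groups of values of the 40 genes, 4 (3.33%) met this, where chance alone gives about 1 in 20. They were the Copb2 count of 2865 in WT 1, the Copg2 count of 420.9 in KO 3, the Copz1 count of 1158 in KO 2 and the Golga7 count of 405 in KO 4. Gaa met it at 14640 in WT 2 and 9854 in AAV 4, both far above the other libraries of their group.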

How the results depend on the processing

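No called log2 fold change of the 40 genes changed sign in any alternative. Of the 24 calls, 7 held in all 19 alternative fits of their comparison (Copz2, Cog6 and Golga3 in both comparisons with KO, and Sec23a in AAV against KO), and the other 17 were lost in at least 1. Calls in KO against WT numbered 8 (beside 27.6% of all genes), and 4 with the replicate block (20.6%). When single libraries were left out they numbered 3 to 14 (15.9% to 48.4%), with 14 only without WT 3. Calls in AAV against KO numbered 16 (26.3% of all genes), 9 with total-read scaling (24.5%), 10 with all 12 libraries in one fit (17.7%), 5 with the replicate block (14.6%) and 4 to 18 when single libraries were left out (13.2% to 34.1%). Calls in AAV against WT were 0 in every alternative. The median log2 fold change of the 40 genes moved by more than the spread between libraries only with total-read scaling, to -0.032 in AAV against KO (from -0.20) and to 0.0115 in AAV against WT (from -0.14), where the median of all genes moved to 0.21 and 0.12. Smaller moves of over 1.5 times came in KO against WT (0.0767), to 0.0289 with the gene length correction and 0.0502 without WT 4, and in AAV against WT (-0.14), to -0.0902 without WT 3, -0.212 without WT 4, -0.0805 without AAV 1, -0.079 without AAV 4 and -0.0696 without both WT 2 and AAV 4. Total-read scaling raised the share of calls over all genes that were higher from 48.9% to 65.3% in AAV against KO and from 73.6% to 89.0% in AAV against WT. The cause of these changes was not tested. Calls absent from the reported fits appeared 17 times, of which 9 came without leaving out a library: Cog1, Arf1 and Uso1 with DESeq2, Sec13 (in both comparisons with KO), Golga4 and Arf1 with the gene length correction, and Arf1 and Sec23b with the GC correction. Replicate numbers do not mark shared animals, and the deviations of same-numbered libraries had correlations over all genes from -0.115 to 0.0253 in KO against WT and -0.176 to 0.0618 in AAV against KO. In AAV against WT they were -0.0732, -0.355, 0.554 and 0.478 for numbers 1 to 4, so that 2 of 4 pairs were above 0.1. Not every pair was above 0.1 in any comparison, and the block is given here only as an alternative. It left 3062, 2179 and 132 genes called over all genes in KO against WT, AAV against KO and AAV against WT.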
